A study of Mus musculus with 8 samples.

Results

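The 9 genes described here belong to bone morphogenetic protein (BMP) signalling: the ligands Bmp2, Bmp4 and Bmp7, the target genes Id1, Id2 and Id3, and the feedback inhibitors Smad6, Smad7 and Bambi. They were taken by name, as every probe set assigned to 1 of these genes alone in the platform's annotation, which gave 14 of 45101 probe sets and 9 of 18194 genes with a probe set. RNA came from mouse embryonic stem (ES) cells on 8 Affymetrix arrays in 4 groups of 2. The groups were Rbp2-/- cells after 6 days in medium lacking leukemia inhibitory factor (LIF, the cytokine that holds mouse ES cells undifferentiated), Rbp2f/f cells treated likewise, Rbp2-/- cells with LIF and Rbp2f/f cells with LIF. Rbp2 is the gene for the histone H3 lysine demethylase now called Kdm5a; the f/f cells carry floxed copies. The labels call the arrays of a group biological replicates and do not say which cultures, clones or lines they came from, so the spread that p-values rest on is that of these samples alone and may be partly technical.

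BMP ligands are secreted growth factors of the transforming growth factor beta family. They bind pairs of serine/threonine kinase receptors, which phosphorylate the receptor-activated SMAD proteins; these join SMAD4, enter the nucleus and switch on targets such as the Id genes, whose helix-loop-helix products sequester other transcription factors. The same signal induces its own brakes, the inhibitory SMADs and the decoy receptor BAMBI. In mouse ES cells BMP4 acting with LIF is known to sustain self-renewal through Id genes, and in differentiating cells BMP signalling is known to favour mesodermal over neural fates.

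Values below are linear intensities after quantile normalization across the arrays, and differences are log2(intensity + 16) with the standard error of the limma fit; on that scale the change of a dim gene is understated. Each gene is read from its brightest probe set unless another is named, and a gene is called at a Benjamini-Hochberg adjusted p under 0.05 over 10916 tested genes. All 9 genes passed the filter on low intensity, set at 28.3 on the mean of all arrays. As deposited, the second Rbp2-/- array with LIF was dim, with a 2% trimmed mean of 77.5 against 110.5 to 128.4 on the others, and normalization multiplied its values by a median of 1.47, against 0.852 to 1.06 elsewhere. Kdm5a read 95 and 66.8 in Rbp2-/- cells against 210 and 225 in Rbp2f/f cells without LIF, and 34.1 and 43.5 against 134 and 168 with LIF. It was not called between genotypes, at -1.28 ± 0.22 without LIF (limma adjusted p = 0.114) and -1.60 ± 0.22 with LIF (limma adjusted p = 0.0707), and rose on withdrawal by 0.81 ± 0.22 in Rbp2-/- cells (limma adjusted p = 0.0355), with 0.49 ± 0.22 in Rbp2f/f cells (limma adjusted p = 0.125). The 10 ES cell markers summed to between 3503 and 3905 in Rbp2-/- and between 4648 and 4742 in Rbp2f/f cells without LIF, against 18984 to 22845 and 21870 to 23616 with LIF, so the labelled cell type and the withdrawal were both visible.

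Withdrawal of LIF raised most of these genes in both genotypes. In Rbp2-/- cells 5 of the 9 were called higher and 0 lower (limma), where 7.28% of all tested genes were called higher and 8.24% lower (15.5% in all). In Rbp2f/f cells 7 of the 9 were called higher and 0 lower, against 14% and 13.2% of all tested genes (27.2% in all). These counts include Bmp7 in Rbp2-/- and Bmp2 in Rbp2f/f cells, which are given below as a description for their low intensity with LIF. At an unadjusted p under 0.05 stood 7 of the 9 in Rbp2-/- cells, against 31.2% of all genes, and 7 in Rbp2f/f cells, against 40.3%. The median difference over the 9 was 1.04 in Rbp2-/- and 1.18 in Rbp2f/f cells, beside all-gene medians of 0.00 and -0.02. Without regard to the fit, the arrays of the media did not overlap for 7 genes in Rbp2-/- cells, all higher without LIF, against 58.7% of all genes (28.9% higher, 29.8% lower). In Rbp2f/f cells they did not overlap for 9 genes, 8 higher and 1 lower, against 68.6% of all genes (33.3% higher, 35.3% lower).

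**Figure D1:**
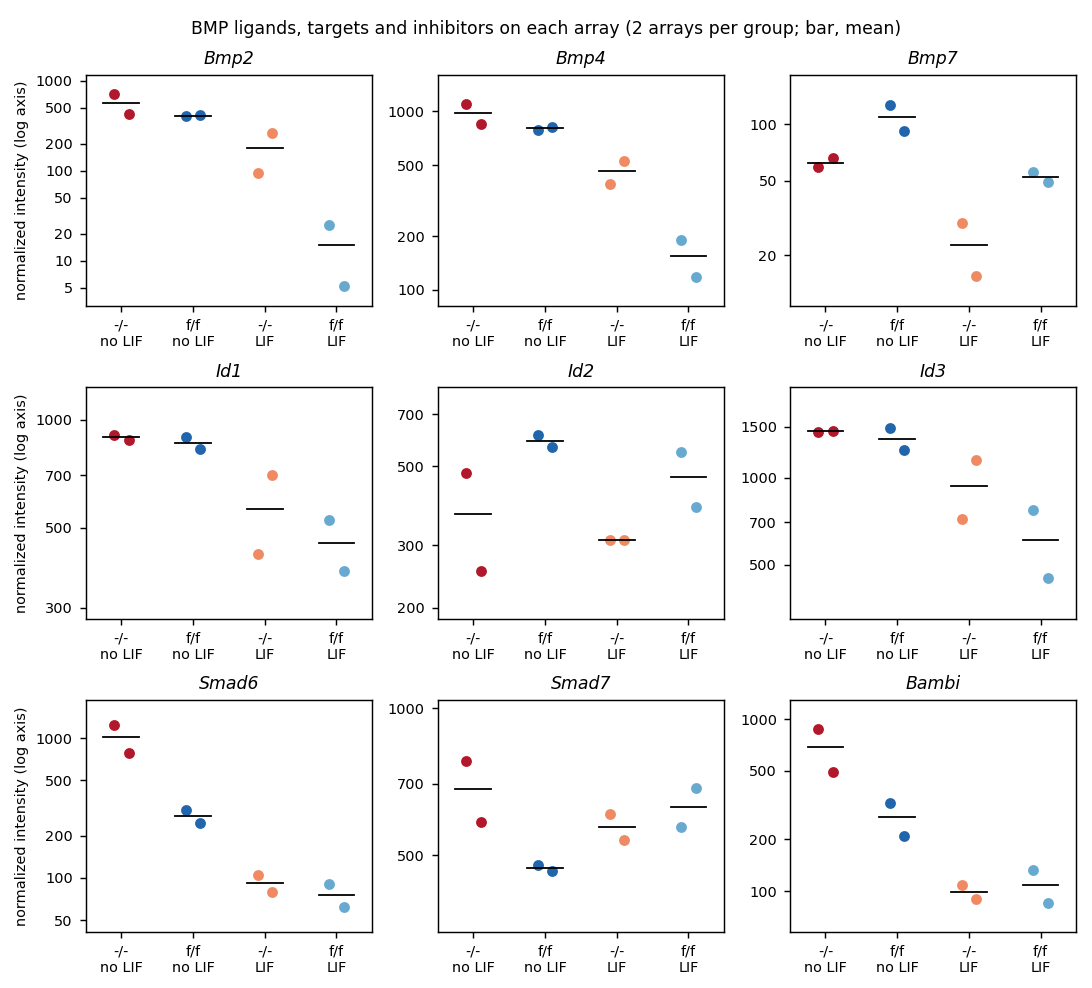
Normalized intensity of each gene's brightest probe set on each array (log axis, 1 panel per gene, with its own range); points are arrays and bars are means of 2 arrays, for Rbp2-/- and Rbp2f/f cells without and with LIF. Bmp2 and Bmp4 stand lowest in Rbp2f/f cells with LIF, and Smad6 and Bambi highest in Rbp2-/- cells without LIF, where Smad6 reads 1233 and 786.

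Among the ligands, Bmp2 is a BMP known for roles in heart and bone formation. It read 707 and 428 in Rbp2-/- cells without LIF and 402 and 414 in Rbp2f/f cells without LIF, against 95.4 and 260 in Rbp2-/- cells with LIF and 24.8 and 5.21 in Rbp2f/f cells with LIF. Every array without LIF lay above every array with it. The Rbp2f/f arrays with LIF were under the low-intensity filter's level of 28.3, so this gene passed through its other groups. Withdrawal raised Bmp2 by 1.69 ± 0.44 in Rbp2-/- cells (limma adjusted p = 0.0316). In Rbp2f/f cells the difference of 3.85 ± 0.44 is counted among the called ones but given as a description.

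Bmp4, the ligand required for mesoderm formation in the mouse embryo, read 1107 and 846 in Rbp2-/- and 787 and 819 in Rbp2f/f cells without LIF. With LIF it read 394 and 529 in Rbp2-/- and 191 and 118 in Rbp2f/f cells, so the media again did not overlap. It rose by 1.06 ± 0.25 in Rbp2-/- cells (limma adjusted p = 0.0206) and by 2.30 ± 0.25 in Rbp2f/f cells (limma adjusted p = 0.000543). Its first Rbp2-/- array without LIF was the highest of the 8, as it was for Bmp2.

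Bmp7, a ligand known for kidney and eye development, had 3 probe sets. The brightest read 58.8 and 65.8 in Rbp2-/- and 127 and 91.4 in Rbp2f/f cells without LIF, against 29.9 and 15.5 in Rbp2-/- and 55.6 and 48.9 in Rbp2f/f cells with LIF. Rbp2-/- arrays lay below Rbp2f/f arrays in both media. The gene rose by 0.86 ± 0.25 in Rbp2f/f cells (limma adjusted p = 0.0332). In Rbp2-/- cells with LIF it averaged 22.7, under the level of the low-intensity filter, so it passed through its other groups. The withdrawal difference of 1.04 ± 0.25 in Rbp2-/- cells is counted among the called ones but given as a description. A dimmer probe set read 36.6 and 34.9 in Rbp2-/- and 45.0 and 34.0 in Rbp2f/f cells without LIF and no more than 12.7 on any array with LIF. It passed the filter only through the groups without LIF, so its values are given as a description. The third was at 49.3 and 74.0 in Rbp2-/- and 88.2 and 61.1 in Rbp2f/f cells without LIF, against 19.0 and 19.3 in Rbp2-/- and 9.61 and 21.5 in Rbp2f/f cells with LIF, and there the genotypes overlapped in both media. This probe set was also read in a fit of 20975 probe sets, those at a mean of at least 18.9. Its differences there were 1.13 ± 0.29 in Rbp2-/- and 1.53 ± 0.29 in Rbp2f/f cells. That fit called 9.98% of the probe sets on withdrawal in Rbp2-/- and 19.5% in Rbp2f/f cells. With LIF the third probe set was close to or under 18.9 on every array, so its differences too are given as a description.

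The promoters of the SMAD-dependent targets and of Bmp4 are shown because these genes are the ones the pathway acts on or starts from. RefSeq windows of assembly GRCm38.p6, reaching from 250 bases before to 50 after the transcription start, were used for 4 of the 9 genes: Bmp4, Id2, Id3 and Smad6. They were searched on both strands for GGCGCC, the GC-rich element bound by BMP-activated SMADs, for its relative GGAGCC, and for the palindrome GTCTAGAC, which SMAD3 and SMAD4 bind. Capitals mark the matches, on either strand. The printed stretches run up to the base before the start, and for Smad6 to the end of a match that crosses it. They lie at chr9:64022056-64022309, minus strand (Smad6), chr14:46390670-46390919, minus strand (Bmp4), chr4:136143572-136143821, plus strand (Id3), and chr12:25096093-25096342, minus strand (Id2).
Smad6: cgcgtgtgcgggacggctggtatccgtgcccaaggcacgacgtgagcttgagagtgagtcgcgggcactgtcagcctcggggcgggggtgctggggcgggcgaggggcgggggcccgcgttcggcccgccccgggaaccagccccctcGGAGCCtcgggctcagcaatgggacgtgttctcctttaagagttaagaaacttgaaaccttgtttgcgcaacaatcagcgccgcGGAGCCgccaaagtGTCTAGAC
Bmp4: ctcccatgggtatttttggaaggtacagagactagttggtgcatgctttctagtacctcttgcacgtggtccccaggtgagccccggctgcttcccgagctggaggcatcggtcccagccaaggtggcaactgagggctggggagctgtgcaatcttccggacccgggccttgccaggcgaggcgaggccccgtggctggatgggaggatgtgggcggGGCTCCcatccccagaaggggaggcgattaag
Id3: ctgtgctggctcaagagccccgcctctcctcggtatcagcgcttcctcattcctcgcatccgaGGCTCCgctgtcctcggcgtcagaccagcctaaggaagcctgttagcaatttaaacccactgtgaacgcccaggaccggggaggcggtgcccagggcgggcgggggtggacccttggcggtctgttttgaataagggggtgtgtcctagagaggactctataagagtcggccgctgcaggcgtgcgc
Id2: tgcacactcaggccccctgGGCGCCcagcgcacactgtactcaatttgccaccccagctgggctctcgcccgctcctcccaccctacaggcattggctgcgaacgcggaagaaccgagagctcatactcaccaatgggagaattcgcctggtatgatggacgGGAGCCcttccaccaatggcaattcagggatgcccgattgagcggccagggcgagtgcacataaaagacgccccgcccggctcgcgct

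Counted from the start site, with -1 the base before it, Smad6 held GGAGCC at -102 and at -18 and GTCTAGAC from -4 to 4. Id3 held 1 GGAGCC on the other strand at -187, Bmp4 likewise at -32, and Id2 had GGAGCC at -88 and GGCGCC at -231. No match overlapped another. Over 32817 RefSeq windows of the same length, 30.8% held GGAGCC, 11.9% GGCGCC and 0.213% GTCTAGAC. These are letter matches in 1 window per gene, and binding was not measured here.

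Id1 and Id3, the targets most often used to read BMP activity, moved alike. Id1 read 907 and 882 in Rbp2-/- and 896 and 831 in Rbp2f/f cells without LIF, against 422 and 704 in Rbp2-/- and 527 and 379 in Rbp2f/f cells with LIF. Id3 read 1435 and 1457 in Rbp2-/- and 1489 and 1242 in Rbp2f/f cells without LIF, against 718 and 1148 in Rbp2-/- and 771 and 448 in Rbp2f/f cells with LIF. For both genes every array without LIF exceeded every array with it, while the genotypes overlapped in each medium. In Rbp2f/f cells Id1 rose by 0.92 ± 0.25 (limma adjusted p = 0.0229) and Id3 by 1.19 ± 0.28 (limma adjusted p = 0.0136). In Rbp2-/- cells the differences, 0.70 ± 0.25 for Id1 (limma adjusted p = 0.0886) and 0.66 ± 0.28 for Id3 (limma adjusted p = 0.139), missed the threshold. The withdrawal effects were not shown to differ between genotypes, at -0.23 ± 0.35 for Id1 (limma adjusted p = 0.835) and -0.53 ± 0.39 for Id3 (limma adjusted p = 0.631). On the values as deposited, where the all-gene median of withdrawal in Rbp2-/- cells was 0.39, both were called there, Id1 at 1.05 (limma adjusted p = 0.0105) and Id3 at 1.02 (limma adjusted p = 0.0163).

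Id2, another member of the family, did not follow them. Its brightest probe set read 479 and 253 in Rbp2-/- and 613 and 566 in Rbp2f/f cells without LIF, against 310 and 310 in Rbp2-/- and 550 and 385 in Rbp2f/f cells with LIF. The Rbp2-/- arrays lay below the Rbp2f/f arrays in both media. The withdrawal difference was 0.16 ± 0.28 in Rbp2-/- (limma adjusted p = 0.742) and 0.35 ± 0.28 in Rbp2f/f cells (limma adjusted p = 0.392), with 95% confidence intervals from -0.47 to 0.80 and from -0.29 to 0.98. A second probe set read 254 and 193 in Rbp2-/- and 215 and 241 in Rbp2f/f cells without LIF, against 185 and 146 in Rbp2-/- and 214 and 276 in Rbp2f/f cells with LIF, and was not called either. The third stayed at or under 18.0 on every array and was not tested.

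Of the inhibitors, Smad6, whose product blocks BMP receptor signalling to the activating SMADs, had the steepest withdrawal rise of the 9 genes in Rbp2-/- cells. It read 1233 and 786 in Rbp2-/- and 304 and 246 in Rbp2f/f cells without LIF, against 104 and 79.1 in Rbp2-/- and 89.8 and 62.3 in Rbp2f/f cells with LIF. The arrays without LIF stood above those with it and, without LIF only, the genotypes were apart. The rise was 3.23 ± 0.26 in Rbp2-/- (limma adjusted p = 0.000152) and 1.67 ± 0.26 in Rbp2f/f cells (limma adjusted p = 0.00282), or 9.37-fold and 3.18-fold on the scale used.

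Bambi, which encodes a receptor-like protein lacking the kinase domain, was likewise highest in Rbp2-/- cells without LIF. It read 880 and 494 in Rbp2-/- and 327 and 210 in Rbp2f/f cells without LIF, against 109 and 90.0 in Rbp2-/- and 132 and 85.2 in Rbp2f/f cells with LIF. It rose by 2.56 ± 0.32 in Rbp2-/- (limma adjusted p = 0.00119) and by 1.18 ± 0.32 in Rbp2f/f cells (limma adjusted p = 0.0232). With LIF the genotypes overlapped for both inhibitors.

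Smad7, an inhibitory SMAD that also restrains activin and transforming growth factor beta receptors, was not called. Its brightest probe set read 778 and 586 in Rbp2-/- and 478 and 465 in Rbp2f/f cells without LIF, against 607 and 536 in Rbp2-/- and 573 and 685 in Rbp2f/f cells with LIF. The media overlapped in Rbp2-/- cells, and in Rbp2f/f cells the arrays without LIF lay lower. The withdrawal difference was 0.24 ± 0.19 in Rbp2-/- (limma adjusted p = 0.431) and -0.40 ± 0.19 in Rbp2f/f cells (limma adjusted p = 0.147). Its other probe set read 58.2 and 57.8 in Rbp2-/- and 57.9 and 61.2 in Rbp2f/f cells without LIF, against 48.1 and 68.6 in Rbp2-/- and 161 and 113 in Rbp2f/f cells with LIF. In the fit of all probe sets it fell by 1.00 ± 0.24 on withdrawal in Rbp2f/f cells (limma adjusted p = 0.0198), with a value of 0.01 ± 0.24 in Rbp2-/- cells (limma adjusted p = 0.991). The name of that probe set marks it as one whose probes may also match other transcripts, and the mean of both Smad7 probe sets was called in Rbp2f/f cells at -0.70 (limma adjusted p = 0.0142).

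**Figure D2:**
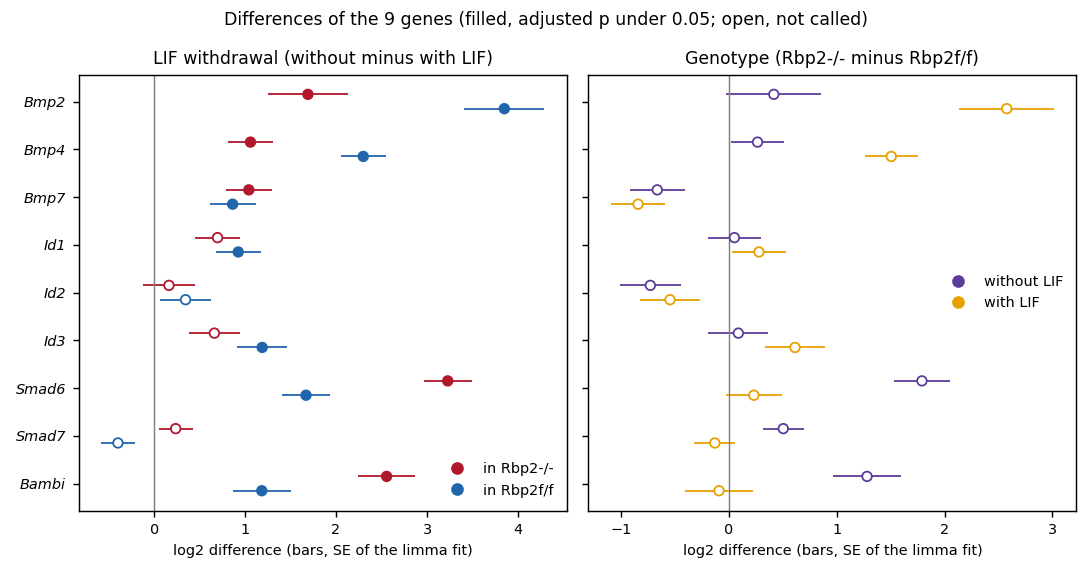
Log2 differences of the 9 genes (horizontal axis, log2 units; bars, SE of the limma fit), for withdrawal of LIF in Rbp2-/- and Rbp2f/f cells at left and for Rbp2-/- minus Rbp2f/f cells without and with LIF at right. Filled points were called and open points were not. On withdrawal 5 points are filled in Rbp2-/- and 7 in Rbp2f/f cells, and no genotype point is. The filled points of Bmp7 in Rbp2-/- and of Bmp2 in Rbp2f/f cells are given as a description, for low intensity with LIF.

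Some withdrawal calls were lost when an array was left out. Where the array is of a compared group, that group keeps 1 array. The standard error was then wider in some fits and narrower in others. For Id3 in Rbp2f/f cells it went from 0.28 to 0.36 without replicate 2 lacking LIF, while the difference was 1.32. Without replicate 2 with LIF it was 0.27, while the difference went from 1.19 to 0.80. For Bmp2 in Rbp2-/- cells it went from 0.44 to 0.41 without replicate 1 with LIF, while the difference went from 1.69 to 1.03. A lost call alone does not show that 1 array carried the difference. In Rbp2-/- cells Smad6 and Bambi, and in Rbp2f/f cells Bmp2, Bmp4 and Smad6, kept their calls in each of the 8 fits that omit an array. In Rbp2-/- cells Bmp2 read 1.03 (limma adjusted p = 0.154) and Bmp4 0.85 (limma adjusted p = 0.104) without replicate 1 of Rbp2-/- with LIF. Without replicate 1 of Rbp2-/- lacking LIF, Bmp2 was at 1.34 (limma adjusted p = 0.200), Bmp4 at 0.87 (limma adjusted p = 0.155) and Bmp7 at 1.10 (limma adjusted p = 0.103). Bmp7 was also lost without replicate 2 of either Rbp2-/- group, with limma adjusted p of 0.0880 (with LIF) and 0.107 (without), and Bmp2 missed at 0.0507 and 0.0509 without 1 or the other Rbp2f/f array lacking LIF. Id1 was called in Rbp2-/- cells (1.06, limma adjusted p = 0.0173) without replicate 2 of Rbp2-/- with LIF. In Rbp2f/f cells Bmp7, Id1, Id3 and Bambi were lost without replicate 2 of Rbp2f/f with LIF (limma adjusted p of 0.113, 0.122, 0.0741 and 0.125) and without replicate 1 of Rbp2f/f lacking LIF (0.214, 0.110, 0.0824 and 0.149). Bmp7, Id1 and Id3 were lost without replicate 2 of Rbp2f/f lacking LIF (0.0794, 0.102 and 0.0571), and Bmp7 without replicate 1 of Rbp2f/f with LIF (0.0826).

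Between genotypes in medium with LIF, Bmp2 and Bmp4 showed the widest gaps and no gene of the 9 was called (limma, with 3 at an unadjusted p under 0.05). That adjusted threshold called 0% of the 10916 genes, and 13.1% were at an unadjusted p under 0.05. Bmp2 averaged 178 ± 117 in Rbp2-/- and 15 ± 13.9 in Rbp2f/f cells (SD, n = 2), a difference of 2.58 ± 0.44 with a 95% confidence interval from 1.59 to 3.57 (limma adjusted p = 0.0995). With a pseudocount of 64 in place of 16 this difference was 1.54, and with 4 it was 3.31. Bmp4 averaged 461 ± 95.9 in Rbp2-/- and 154 ± 51.5 in Rbp2f/f cells (SD, n = 2), a difference of 1.51 ± 0.25 (interval 0.95 to 2.06, limma adjusted p = 0.0893). Both Rbp2-/- arrays lay above both Rbp2f/f arrays for these ligands. On the values as deposited Bmp2 was called, at 2.26 (limma adjusted p = 0.0219) beside an all-gene median of -0.28, and it was called without replicate 1 of Rbp2-/- with LIF (3.23, limma adjusted p = 0.0369).

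By their brightest probe sets the remaining genes with LIF were nearer to 0. Bmp7 stood at -0.84 ± 0.25 (interval -1.41 to -0.27, limma adjusted p = 0.229) and Id2 at -0.55 ± 0.28 (interval -1.18 to 0.09, limma adjusted p = 0.438), their Rbp2-/- arrays below the Rbp2f/f arrays. Id3 was at 0.61 ± 0.28 (limma adjusted p = 0.388), Id1 at 0.28 ± 0.25 (limma adjusted p = 0.647) and Smad6 at 0.23 ± 0.26 (limma adjusted p = 0.726). Smad7 was at -0.13 ± 0.19 (limma adjusted p = 0.788) and Bambi at -0.09 ± 0.32 (limma adjusted p = 0.921). Other probe sets, in the fit of all probe sets, differed from these for Smad7 and Bmp7. That of Smad7 was at -1.03 ± 0.24 (limma adjusted p = 0.195), and those of Bmp7 at 0.18 ± 0.29 and -0.08 ± 0.30. The second probe set of Id2 was at -0.52 ± 0.22. In all, the genotypes' arrays did not overlap for 4 of the 9 genes, 2 higher and 2 lower in Rbp2-/- cells, against 40.1% of all genes (18.6% higher, 21.5% lower).

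Without LIF the widest genotype differences of the 9 were those of Smad6 and Bambi, and again no gene of the 9 was called (limma; 5 at an unadjusted p under 0.05), where 0% of all genes were called and 14.2% were at an unadjusted p under 0.05. Smad6 averaged 1010 ± 316 in Rbp2-/- and 275 ± 41.3 in Rbp2f/f cells (SD, n = 2), a difference of 1.79 ± 0.26 (interval 1.20 to 2.38, limma adjusted p = 0.114). Bambi averaged 687 ± 273 in Rbp2-/- and 268 ± 82.4 in Rbp2f/f cells (SD, n = 2), at 1.28 ± 0.32 (interval 0.57 to 1.99, limma adjusted p = 0.152). Smad7 was at 0.50 ± 0.19 (interval 0.08 to 0.93, limma adjusted p = 0.275), also with both Rbp2-/- arrays above the Rbp2f/f arrays. Without replicate 2 of Rbp2-/- lacking LIF, Smad6 was called at 2.12 (limma adjusted p = 0.0400), and without replicate 1 it stood at 1.47 (limma adjusted p = 0.685). With array weights it was called at 1.79 (limma adjusted p = 0.0310).

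Id2 stood at -0.73 ± 0.28 (interval -1.36 to -0.09, limma adjusted p = 0.290) and Bmp7 at -0.66 ± 0.25 (interval -1.24 to -0.09, limma adjusted p = 0.284) without LIF. Other probe sets gave smaller differences in the fit of all probe sets. They were -0.04 ± 0.22 for Id2, -0.23 ± 0.29 and -0.09 ± 0.30 for Bmp7, and -0.03 ± 0.24 for Smad7. The pair that had differed most with LIF was at 0.42 ± 0.44 for Bmp2 (interval -0.57 to 1.41, limma adjusted p = 0.704) and 0.27 ± 0.25 for Bmp4 (interval -0.29 to 0.82, limma adjusted p = 0.663). Id1 was at 0.05 ± 0.25 (limma adjusted p = 0.946) and Id3 at 0.09 ± 0.28 (limma adjusted p = 0.917). The arrays of the genotypes did not overlap for 7 of the 9 genes, 5 higher and 2 lower in Rbp2-/- cells, against 55.2% of all genes (26.1% higher, 29.1% lower).

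The difference of the withdrawal effects, Rbp2-/- minus Rbp2f/f, was tested as an interaction. None of the 9 genes was called (limma; 5 at an unadjusted p under 0.05), with 0% of all genes called and 11.1% at an unadjusted p under 0.05. The values were -2.16 ± 0.62 for Bmp2 (limma adjusted p = 0.373) and -1.24 ± 0.35 for Bmp4 (limma adjusted p = 0.358), whose rise was numerically smaller in Rbp2-/- cells. They were 1.56 ± 0.37 for Smad6 (limma adjusted p = 0.337), 1.37 ± 0.45 for Bambi (limma adjusted p = 0.387) and 0.63 ± 0.27 for Smad7 (limma adjusted p = 0.439), whose values were larger there. Bmp7 was at 0.18 ± 0.36 (limma adjusted p = 0.885) and Id2 at -0.18 ± 0.40 (limma adjusted p = 0.894). None of these differences was shown between genotypes.

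Sums of markers of other cells differed between the media too. The 10 fibroblast markers taken as a sign of feeder cells summed to 3864 and 1405 in Rbp2-/- and 1685 and 1544 in Rbp2f/f cells without LIF, against 875 and 812 in Rbp2-/- and 625 and 381 in Rbp2f/f cells with LIF. Col1a1 alone read 2766 and 639 in Rbp2-/- and 494 and 502 in Rbp2f/f cells without LIF, and the other 9 summed to 1098 and 766 in Rbp2-/- and 1190 and 1042 in Rbp2f/f cells. The first Rbp2-/- array without LIF, highest in the full sum through Col1a1, was also the higher of its group for Bmp2, Bmp4, Id1, Id2, Smad6, Smad7 and Bambi. The 9 mesoderm markers measured summed to 790 and 2498 in Rbp2-/- and 1497 and 1786 in Rbp2f/f cells without LIF. With LIF they summed to 708 and 659 in Rbp2-/- and 599 and 723 in Rbp2f/f cells. The sum was thus higher in the other Rbp2-/- array without LIF, while that of the first was near the sums with LIF. These sums mix opposite moves, so near sums do not mean alike marker levels. Tcf15 averaged 28.6 in Rbp2-/- and 25.7 in Rbp2f/f cells without LIF, against 252 and 432 with LIF. Each other mesoderm marker averaged higher without LIF in both genotypes. The 10 extraembryonic endoderm markers summed to between 1185 and 1284 in Rbp2-/- and between 1470 and 1716 in Rbp2f/f cells without LIF, against 626 to 640 and 721 to 831 with LIF; Sox7 and Afp were under 28.3 on every array. The 9 neural markers measured summed to between 336 and 526 in Rbp2-/- and between 497 and 594 in Rbp2f/f cells without LIF, against 545 to 673 and 977 to 1128 with LIF, lower without LIF in both genotypes, with Sox1, Neurog2 and Zic1 under 28.3 throughout. The neural markers did not all fall. Nes averaged 229 in Rbp2-/- and 369 in Rbp2f/f cells without LIF, against 203 and 309 with LIF. Pax6, Tubb3, Olig2, Sox3 and Map2 averaged lower without LIF in both genotypes, Olig2 at 13.8 and 14.1 against 110 and 319. No marker of these lists read 0. Their part in the changes above was not tested, and in bulk RNA more cells of a type cannot be told apart from more RNA per cell.

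Across the 8 arrays, Bmp2 and Bmp4 were each other's nearest gene among all tested ones that carry more than a clone or predicted-gene name, with a Pearson correlation of 0.996 on the log2 scale after centring each array on its median. Mtpn came next for Bmp2 (0.987) and Pex19 for Bmp4 (0.986). Smad6 was most like Slc38a4 (0.989) and then Bambi (0.988), while Bambi was most like Foxo4 (0.992) and Emilin2 (0.989). Id1 lay nearest to Wnt11 (0.994) and Nynrin (0.992), and Id3 to Snx17 (0.983) and Aak1 (0.976). Bmp7 was closest to Vat1 (0.986) and Yap1 (0.985), Smad7 to Cul2 (0.976) and Pgk1 (0.969), and Id2 to Ocrl (0.905) and Fgd3 (0.902). Between the pairs, Bmp2 correlated at 0.78 with Smad6 and 0.74 with Bambi, and Id1 at 0.97 with Id3 and 0.19 with Id2. These coefficients describe 8 points in 4 groups that share the withdrawal step.

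Other genes of the pathway were read from lists of names. Receptors pass the signal inward: in Rbp2-/- cells withdrawal raised 1 of 8 tested and lowered 1, and in Rbp2f/f cells it raised 4 and lowered 0. Over all genes 7.28% rose and 8.24% fell in Rbp2-/- cells, and 14% rose and 13.2% fell in Rbp2f/f cells, so the counts of receptors in Rbp2-/- cells were near that background. Bmpr2, the type II BMP receptor, averaged 275 without and 151 with LIF in Rbp2-/- cells (0.81 ± 0.19, limma adjusted p = 0.0205), and 396 without and 156 with LIF in Rbp2f/f cells (1.26 ± 0.19, limma adjusted p = 0.0023). Eng, the co-receptor endoglin, fell to 64.2 in Rbp2-/- cells without LIF, against 173 with LIF (-1.38 ± 0.40, limma adjusted p = 0.0474). Rgma, a membrane-anchored BMP co-receptor, averaged 92.8 without and 20.6 with LIF in Rbp2f/f cells (1.56 ± 0.30). Bmpr1a, a type I receptor, averaged 513 and 296 there (0.77 ± 0.23, limma adjusted p = 0.0329).

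Of 9 tested SMAD transducers and their regulators, withdrawal raised 2 in Rbp2-/- and 5 in Rbp2f/f cells and lowered 0 in either. Over all genes 7.28% rose and 8.24% fell in Rbp2-/- cells, and 14% and 13.2% in Rbp2f/f cells. Smad1, a receptor-activated SMAD, averaged 524 without and 221 with LIF in Rbp2-/- cells (1.17 ± 0.27, limma adjusted p = 0.0194), and 488 and 207 in Rbp2f/f cells (1.18 ± 0.27, limma adjusted p = 0.0122). Smurf2, a ubiquitin ligase that targets SMADs and receptors, rose by 1.02 ± 0.22 in Rbp2-/- cells (limma adjusted p = 0.0159). In Rbp2f/f cells its relative Smurf1 rose by 0.77 ± 0.20 (limma adjusted p = 0.0225) and Smad4, the common partner, by 0.57 ± 0.17 (limma adjusted p = 0.0352).

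Extracellular antagonists and modulators gave 2 higher of 8 in Rbp2-/- and 5 higher of 8 in Rbp2f/f cells, with 0 lower in either. The shares over all genes were 7.28% higher and 8.24% lower in Rbp2-/- cells, and 14% and 13.2% in Rbp2f/f cells. Nog, the BMP-binding antagonist noggin, averaged 145 without and 19.4 with LIF in Rbp2f/f cells (2.18 ± 0.27). Bmp1, a protease that cleaves the antagonist chordin and no BMP ligand, averaged 698 without and 135 with LIF there (2.30 ± 0.37, limma adjusted p = 0.00331). Twsg1, which modulates ligand binding to chordin, rose by 0.82 ± 0.20 in Rbp2-/- (limma adjusted p = 0.0257) and 1.13 ± 0.20 in Rbp2f/f cells (limma adjusted p = 0.00477). Bmper, another secreted modulator, averaged 69.7 without and 13.4 with LIF in Rbp2-/- cells (1.5 ± 0.32).

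Among 11 other genes known to respond to BMP signals, 8 rose and 0 fell in each genotype, with medians of 1.25 in Rbp2-/- and 1.23 in Rbp2f/f cells. Of those counted, Dlx3 averaged 22.3 in Rbp2-/- and 26.5 in Rbp2f/f cells with LIF, and Gata3 27.2 and 7.08. Those means were under the level of the low-intensity filter, so the rises of Dlx3 and Gata3 are given as a description. Msx2, a homeobox gene of mesoderm and neural crest, averaged 1397 without and 209 with LIF in Rbp2-/- cells (2.74 ± 0.38, limma adjusted p = 0.00204), and 483 and 80.8 in Rbp2f/f cells (2.41 ± 0.38, limma adjusted p = 0.00292). Tbx3, a T-box factor, rose by 1.98 ± 0.23 in Rbp2-/- (limma adjusted p = 0.000867) and 1.27 ± 0.23 in Rbp2f/f cells (limma adjusted p = 0.00473). The name of its probe set, like that of the dimmer Smad7 one, marks probes that may also match other transcripts. Dusp9, a phosphatase that restrains ERK kinases, rose by 1.27 ± 0.19 in Rbp2-/- cells (limma adjusted p = 0.00269), and Msx1, the relative of Msx2, by 2.57 ± 0.45 in Rbp2f/f cells (limma adjusted p = 0.00443).

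Other ligands went both ways. Of 6 tested, 1 rose and 2 fell in Rbp2-/- cells, where 15.5% of all genes were called. In Rbp2f/f cells 1 rose and 1 fell, where 27.2% of all genes were called. Bmp5, the 1 that rose, averaged 163 without and 9.03 with LIF in Rbp2-/- (2.88 ± 0.37) and 121 and 7.04 in Rbp2f/f cells (2.55 ± 0.37). Gdf3, a ligand of undifferentiated ES cells, fell to 69.3 in Rbp2-/- cells without LIF, against 862 with LIF (-3.37 ± 0.18, limma adjusted p = 2.32e-05), and to 77.1 in Rbp2f/f cells without LIF, against 694 with LIF (-2.93 ± 0.18, limma adjusted p = 5.75e-05). The arrays of Bmp5 with LIF averaged under the filter's 28.3, as did Rgma, Nog and Nbl1 in Rbp2f/f cells. So did Bmper, Dlx3 and Gata3 in both genotypes. These genes were tested through the groups where they are high. The rises of Bmp5, Bmper, Rgma, Nog, Nbl1, Dlx3 and Gata3, though in the counts of their lists, are therefore given as a description. Gdf9, known from oocytes, fell by 0.82 ± 0.23 in Rbp2-/- cells (limma adjusted p = 0.0399).

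**Figure D3:**
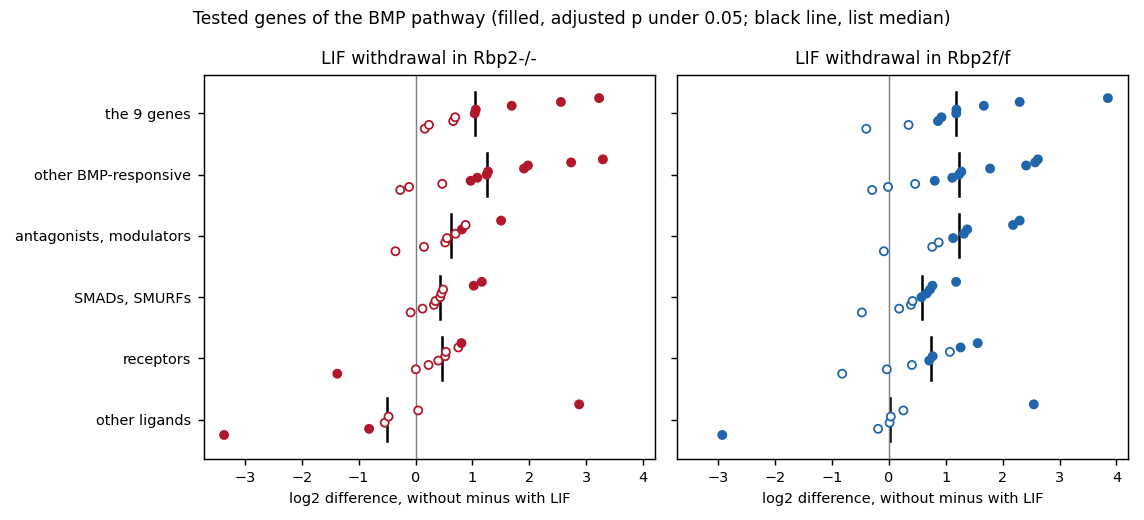
Log2 differences on LIF withdrawal (horizontal axis, log2 units, without minus with LIF) for every tested gene of 6 lists, in Rbp2-/- cells at left and Rbp2f/f cells at right; each point is a gene, filled where called, and black lines are list medians. The list of other BMP-responsive genes has 8 filled points of 11 in each genotype. Those of Dlx3 and Gata3 among them are given as a description, for low intensity with LIF. The other ligands hold filled points on both sides of 0.

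Between genotypes no gene of these 5 lists was called in either medium, nor in the interaction (limma), where 0% of all genes were. With LIF 8 of their 42 tested genes were at an unadjusted p under 0.05, without LIF 10 and in the interaction 6, against 13.1%, 14.2% and 11.1% of all genes in the same order. The smallest p with LIF belonged in each list to Acvr2b, a type II receptor (-0.57 ± 0.21, limma adjusted p = 0.298), Skil, a SMAD co-repressor (-0.74 ± 0.25, limma adjusted p = 0.260), Nog (1.12 ± 0.27, limma adjusted p = 0.174), Msx2 (1.16 ± 0.38, limma adjusted p = 0.259) and Gdf9 (0.66 ± 0.23, limma adjusted p = 0.275). Without LIF they were Rgma (-1.10 ± 0.30, limma adjusted p = 0.168), Smurf2 (0.32 ± 0.22, limma adjusted p = 0.556), Nbl1, a secreted antagonist (-1.19 ± 0.38, limma adjusted p = 0.218), Tbx3 (1.06 ± 0.23, limma adjusted p = 0.136) and Bmp8b, a BMP ligand (-1.06 ± 0.37, limma adjusted p = 0.248). In the interaction they were Rgma (-1.33 ± 0.42, limma adjusted p = 0.387), Skil (0.83 ± 0.35, limma adjusted p = 0.439), Nog (-1.66 ± 0.39, limma adjusted p = 0.337), Tbx3 (0.70 ± 0.32, limma adjusted p = 0.458) and Gdf9 (-0.83 ± 0.32, limma adjusted p = 0.423). Nog read 64.2 on average in Rbp2-/- and 19.4 in Rbp2f/f cells with LIF, and its arrays did not overlap between genotypes there.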

How the data were processed

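RNA from 8 ES cell samples was hybridised to Affymetrix mouse arrays, 1 array a sample, per the labels' protocols. The deposited values are linear intensities per probe set, summarised by the authors; how background was corrected and arrays scaled is not given in the sources used here; no detection calls were used. Of 45101 probe sets, 34958 were assigned to 1 gene by the platform annotation, 932 to several and 9211 to none.

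Values were quantile normalized, 16 was added and log2 taken. The brightest probe set stood for each gene, and genes at or above the 40th percentile of mean intensity were tested (10916 of 18194). Group means were fitted over all 8 arrays with limma 3.58.1 (lmFit, eBayes with trend; R 4.3.3), with 4 residual degrees of freedom, two-sided, adjusted by Benjamini-Hochberg over all tested genes. The number of arrays limits the precision. The fit was tested on simulated data. Each result was recomputed under 20 alternatives (scaling, pseudocount, filter, probe set rule, variance trend, array weights, threshold, replicate block, and each array left out). The members and the gene lists were chosen with earlier results of these data known.

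All 9 genes and Kdm5a were named throughout. Of the other lists, up to 3 called genes with the smallest p per list and comparison were named, or else the 1 with the smallest p. Dlx3 and Gata3 are also named, for their low intensity with LIF. Of 66 names in the 5 other pathway lists 61 were matched and 42 tested. Replicate numbers were not taken to pair samples.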

Additional observations from a re-analysis of the deposited data

How the results depend on the processing

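Of 895 gene values recomputed, 834 kept their direction and their side of the threshold, 32 lost and 10 gained a call, and 19 changed sign; in no case did a called value change sign. Between genotypes with LIF, 1 of the 9 genes (Bmp2) was called on the values as deposited, and 0 to 1 when single arrays were left out. Without LIF, 1 (Smad6) was called with array weights and 0 to 1 with arrays left out. With the replicate block, 2 were called without LIF (Smad6, limma adjusted p = 0.0172, and Bambi, 0.0443). That block changed no other call among the 9 genes; all-gene calls with it numbered 3 with LIF, 30 without and 1 in the interaction, and same-numbered arrays' deviations correlated at -0.068 to 0.273. At an adjusted p under 0.01, withdrawal called 2 genes in Rbp2-/- and 3 in Rbp2f/f cells. With no filter it called 3 in Rbp2-/- cells. Leaving out arrays gave 2 to 5 calls in Rbp2-/- and 3 to 7 in Rbp2f/f cells, and 0 to 0 in the interaction.

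Sign changes touched values near 0, and the cause was not tested. On the values as deposited these were Id1 (-0.047) and Smad6 (-0.0052) between genotypes with LIF and the interactions of Id1 (0.13) and Id2 (0.20). The interaction of Bmp7 was -0.021 with a pseudocount of 64 and -0.082 with the mean of all probe sets, where that of Id2 was 0.25. With single arrays left out, the genotype difference with LIF ran from -0.37 to 0.19 for Bambi and -0.081 to 0.63 for Id1. Without LIF it ran from -0.0022 to 0.10 for Id1 and -0.041 to 0.22 for Id3. Withdrawal in Rbp2-/- cells ran from -0.28 to 0.61 for Id2. The interaction ran from -0.58 to 0.13 for Id1, -0.62 to 0.26 for Id2 and -0.086 to 0.46 for Bmp7.

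Bmp2 in Rbp2-/- withdrawal was also lost with a pseudocount of 4 (limma adjusted p = 0.0649) and with no filter (0.0657), and Bmp7 with no filter in both genotypes (0.0595 in Rbp2-/-, 0.0746 in Rbp2f/f cells). Bmp7 was not tested with the filter at the 60th percentile. Counts over all genes that moved by over 1.5 times were, on the values as deposited, 28 with LIF and 3 without LIF between genotypes; with array weights, 225 without LIF; with the mean of probe sets, 3 with LIF; and at an adjusted p under 0.01, 620 for withdrawal in Rbp2-/- and 1235 in Rbp2f/f cells. Leaving out arrays gave 0 to 24 with LIF, 0 to 34 without LIF, 555 to 1756 for withdrawal in Rbp2-/- and 853 to 3364 in Rbp2f/f cells.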
